A study of Homo sapiens with 6 samples.

Results

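The IGF2 mRNA-binding protein genes IGF2BP1, IGF2BP2 and IGF2BP3 were examined together with 7 genes whose mRNAs are known to be bound or stabilised by these proteins, MYC, CD44, HMGA1, HMGA2, LIN28B, IGF2 and ACTB. The 10 genes were picked by symbol from the 62710 genes in the deposited count table, and each symbol named 1 gene. Of the 10 genes, 9 had enough counts to be tested, and LIN28B did not. The libraries came from HCT116, an established human colon carcinoma line. The 3 sh-NC libraries were made from cells that carried a scrambled control shRNA, and the 3 sh-IGF2BP3 libraries from cells that carried an shRNA against IGF2BP3. Both shRNAs were delivered by lentivirus, and stable lines were selected with puromycin, so control and knockdown cells share the vector and the selection. In these libraries the knockdown rests on 1 shRNA sequence in 1 cell line. The study used the same shRNA in DLD-1 cells as well. It reports the knockdown in both lines by qPCR, with GAPDH as the reference, and by Western blot. Nothing in the labels says that the libraries of a group came from separate cultures, so p-values measure only the spread between these libraries, which may be technical.

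The 3 IGF2BP proteins are closely related cytoplasmic RNA-binding proteins that coat particular mRNAs and shield them from decay, in part by recognising m6A-marked sites and in part by competing with microRNAs. They are called oncofetal because IGF2BP1 and IGF2BP3 are abundant in the embryo, largely silent in most adult tissues and switched on again in many carcinomas, while IGF2BP2 stays on in many adult cells. Their best known clients are IGF2, a growth factor of fetal tissues, ACTB, the β-actin mRNA in which the founding member was described as the zipcode-binding protein, MYC and CD44. HMGA1, HMGA2 and LIN28B are further clients that are also used as markers of the fetal state, and let-7 family microRNAs repress HMGA2, LIN28B and IGF2BP mRNAs through sites in their 3′ UTRs.

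The shRNA target sequence is shown first, because how closely it matches each family member bears on which of the 3 mRNAs it could act on directly. The study's target sequence was searched in GENCODE 29 transcripts (GRCh38). In the following lines, capitals in the IGF2BP1 and IGF2BP2 sites mark bases that differ from the shRNA target, and the shRNA targets themselves are given whole in capitals.
sh-IGF2BP3: GGCTCAGGGAAGAATTTAT
sh-NC: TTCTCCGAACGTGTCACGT
IGF2BP3 coding sequence: ggctcagggaagaatttat
IGF2BP1 coding sequence: ggctcagggaagaatCtat
IGF2BP2 coding sequence: ggcCcagggaCgGatCtTt

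The sh-IGF2BP3 target matched 4 of the 18 annotated IGF2BP3 transcripts without a mismatch. The match began at base 1395 of the 1740-base coding sequence, lay on the minus strand of chromosome 7, and crossed the junction of exons 12 and 13 of 15, with 1 base in exon 12 at 23317639 and 18 bases in exon 13 from 23313636 to 23313653. The closest IGF2BP1 site sat at the same place in its coding sequence, base 1395 of 1734, and matched 18 of the 19 bases, with the single difference T16C counted from the 5′ end of the shRNA target. The closest IGF2BP2 site, at base 1461 of 1800, matched 14 of the 19 bases and differed by T4C, A11C, A13G, T16C and A18T. Outside IGF2BP3, 1 further gene held the whole target, the processed pseudogene ENSG00000213067, also on chromosome 7, which had 0 counts in all 6 libraries. The sh-NC target matched 0 genes. These are matches of letters and say nothing of how well the shRNA cut any of the mRNAs.

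The miR-98 and let-7 sequences are shown because the study tested miR-98-5p as a regulator of IGF2BP3, and because the members differ in how many sites for its seed they carry. Mature sequences are from RefSeq (GRCh38.p14), and capitals mark the seed, bases 2 to 8, which 11 mature human microRNAs in that table shared, among them the let-7 microRNAs, miR-4458 and miR-4500.
hsa-miR-98-5p: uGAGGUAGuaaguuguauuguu
hsa-let-7a-5p: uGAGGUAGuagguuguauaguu
hsa-let-7g-5p: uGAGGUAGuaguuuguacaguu

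The mature miR-98-5p lies at chrX:53556299-53556320 on the minus strand, and the sense strand of the study's mimic was identical to it. The DNA form of the seed match, CTACCTC, read on the transcript strand only, was searched in the 3′ UTR of 1 principal transcript per gene. For the sites below, capitals mark the seed match, and the base after it shows whether the match extends to the 8 letters CTACCTCA, which overlap the 7 letters of the shorter motif.
IGF2BP3 site at 560-566: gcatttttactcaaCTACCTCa
IGF2BP2 site at 1304-1310: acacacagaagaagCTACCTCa
IGF2BP1 first site at 1632-1638: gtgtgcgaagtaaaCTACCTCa
HMGA2 first site at 21-27: ccaacgttcgatttCTACCTCa
LIN28B first site at 44-50: cccggttgcaaagtCTACCTCa

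The seed match was present in 1667 of 19240 3′ UTRs, or 8.66%. IGF2BP1 held 4 matches in 6206 bases, 3 of them 8 letters long, HMGA2 held 4 in 3003 bases and LIN28B held 4 in 4549 bases. IGF2BP3 and IGF2BP2 each held 1 match of 8 letters, and HMGA1 held 1 of 7 letters. CD44, IGF2 and ACTB held 0, and the MYC 3′ UTR was not analysed here. Long 3′ UTRs hold more matches by length alone. Among 3′ UTRs of similar length, 12.2% held at least 1 match as IGF2BP3 does, while 0.554% held as many as IGF2BP1, 0.0970% as many as HMGA2 and 0.229% as many as LIN28B. No microRNA was measured in these libraries, so a match is a description of the reference sequence only.

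**Figure D1:**
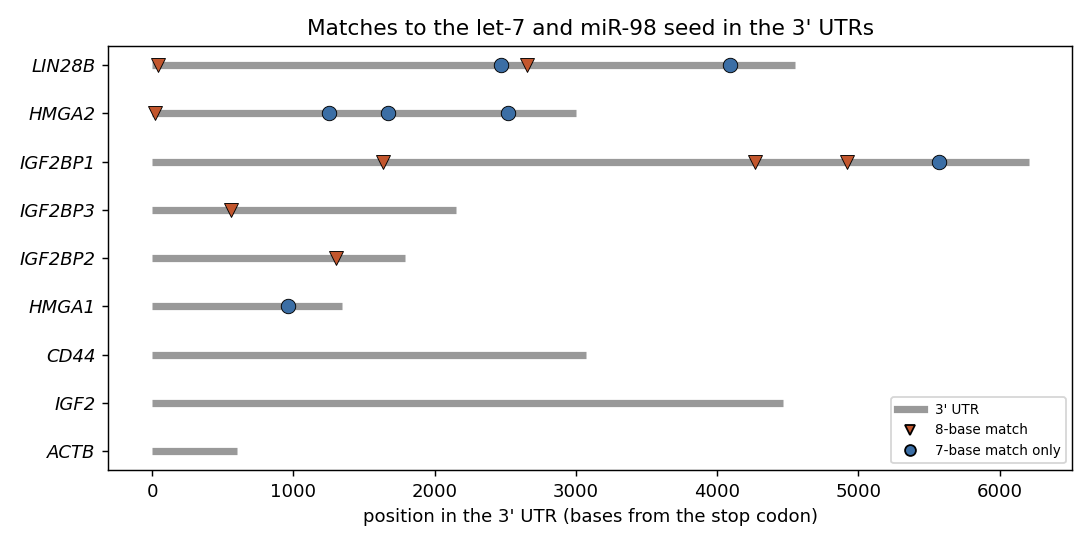
Map of the 3′ UTRs of 9 of the 10 genes, with the distance from the stop codon in bases on the x axis. Grey bars show the 3′ UTR, triangles the 8-letter seed match and circles the 7-letter match alone, and IGF2BP1, HMGA2 and LIN28B each carry 4 matches while CD44, IGF2 and ACTB carry none.

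Total counts were 16146718 to 23576469 per library, and 3 counts, the number below which a gene was treated as not distinguishable from 0, corresponded to 0.124 to 0.196 CPM. CPM is the count scaled to a common library size, here with library sizes adjusted by the trimmed mean of M values. Several features of the libraries touched the comparison of the members. The library sh-NC 1 was closer to sh-IGF2BP3 3 than to either other control, with a chi-square per degree of freedom of 10.3 between them against 33.6 and 60.6 between sh-NC 1 and sh-NC 2 or 3. In turn, sh-IGF2BP3 3 was closer to sh-NC 1 than to sh-IGF2BP3 2 or 1, at 25.3 and 53.3. Between sh-NC 1 and sh-IGF2BP3 2 the value was 33.1. Each group thus held a library that sat nearest to 1 of the other group. Differences between groups followed the GC content of the transcript, with a Spearman correlation of 0.611 across tested genes, which are not independent replicates. The slope of each library's log2 level on GC content, per 10 percentage points, was −0.05, −0.23 and −0.21 in sh-NC and 0.35, 0.15 and −0.01 in sh-IGF2BP3. Epithelial markers summed to 2314 to 4094 CPM in sh-NC and 3448 to 4575 CPM in sh-IGF2BP3. Of the 10 epithelial markers, 9 were tested, with VIL1 below the filter. At an unadjusted p under 0.05 by edgeR, 3 were higher and 2 lower, against 13.6% and 8.54% of all tested genes. Fibroblast markers summed to 28.5 to 48.3 and 30.04 to 59.8 CPM, of which COL1A1 made up most, with COL1A2 and LUM at 0. Endothelial markers summed to 2.20 to 4.44 and 1.44 to 4.00 CPM, and leukocyte markers to 0.950 to 1.52 and 1.14 to 1.504 CPM.

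On GRCh38, as the count table gives it, IGF2BP1 (ENSG00000159217) lies at chr17:48997385-49056145 on the plus strand, IGF2BP2 (ENSG00000073792) at chr3:185643130-185825042 on the minus strand and IGF2BP3 (ENSG00000136231) at chr7:23310209-23470491 on the minus strand. Of the clients, CD44 lies at chr11:35138882-35232402, HMGA1 at chr6:34236873-34246231, HMGA2 at chr12:65824460-65966291 and LIN28B at chr6:104936616-105083332, all on the plus strand. IGF2 lies at chr11:2129112-2158391 and ACTB at chr7:5526409-5563902, both on the minus strand. All 9 are annotated as protein-coding.

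Levels of different genes were compared in FPKM, the deposited values, which are scaled to library size and to gene length. The order given below holds for FPKM only, because it depends on the gene length behind these values. HMGA1, which encodes a chromatin architectural protein, was the highest member with a mean over 6 libraries of 582 FPKM, followed by ACTB with 522 FPKM. HMGA1 lay above ACTB in FPKM in 6 of 6 libraries although their ranges overlapped across libraries. The gene length behind FPKM was 4405 bases for ACTB and 2327 for HMGA1, against longest transcripts of 2245 and 2159 bases. In CPM, which is not scaled to length, ACTB was the higher in every library. MYC, the growth-promoting transcription factor, and CD44, the hyaluronan receptor and stem-like cell marker, followed with 80.1 and 77.6 FPKM. They could not be ordered, since MYC was the higher in only 3 of 6 libraries. Their lengths behind FPKM, 6109 and 9992 bases, also exceeded their longest transcripts of 2366 and 5732 bases. IGF2BP2 came next with 38.6 FPKM, then HMGA2 with 14.3 FPKM and IGF2BP3 with 8.07 FPKM, and each was above the next in 6 of 6 libraries with ranges that did not overlap. IGF2 averaged 1.15 FPKM. IGF2BP1 and LIN28B were near the floor, with means of 0.145 and 0.0670 FPKM and overlapping ranges.

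**Figure D2:**
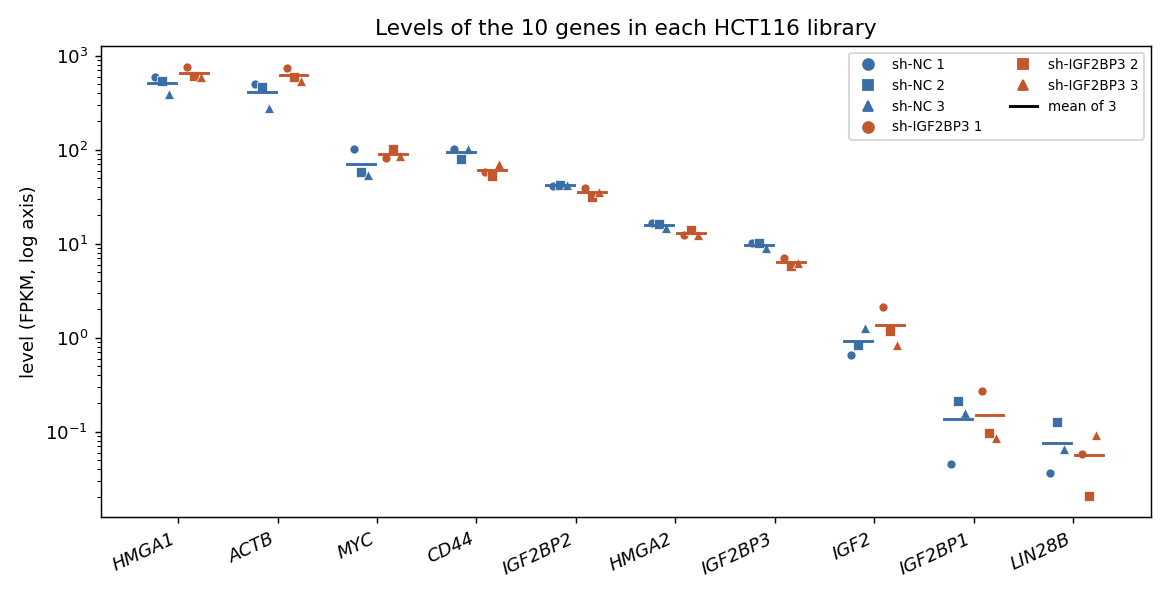
Level of each of the 10 genes in FPKM on a log axis, in 3 sh-NC (blue) and 3 sh-IGF2BP3 (orange) libraries, with bars for the group means. HMGA1 and ACTB sit near the top, IGF2BP2 stands above IGF2BP3 in every library, and IGF2BP1 and LIN28B lie below 0.3 FPKM.

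The IGF2BP family in these cells consisted mainly of IGF2BP2 and, at a lower level, IGF2BP3. IGF2BP3, the shRNA's target, was at 90.3, 84.1 and 70.3 CPM in sh-NC and at 60.2, 52.3 and 55.8 CPM in sh-IGF2BP3. All 3 knockdown libraries were below all 3 controls. The means were 81.6 ± 10.2 and 56.1 ± 3.98 CPM (SD, n = 3 each), a difference of −31.3%. The log2 fold change was −0.54 (SE 0.181, 95% interval −0.93 to −0.16), which did not pass the test after adjustment over all genes (edgeR quasi-likelihood test, adjusted p = 0.126). Without sh-NC 1 the value was −0.46 and the adjusted p by edgeR was 0.107. By unadjusted p it ranked 1188 of 16753 tested genes. A bulk library cannot tell fewer cells that express a gene from less RNA per cell. The use of strand in counting is not known, so reads from IGF2BP3 and from MALSU1, which overlaps it on the opposite strand, cannot be told apart where they overlap. MALSU1 totalled 2443 counts against 7846 for IGF2BP3, and its levels were 21.0, 19.3 and 16.7 CPM in sh-NC and 24.4, 30.9 and 21.6 CPM in sh-IGF2BP3.

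By edgeR on all 6 libraries, with trimmed-mean scaling and the default filter, no member and no other gene met both thresholds of the study. These were an adjusted p under 0.05 and a fold change over 1.5. The study reports differentially expressed genes at these thresholds and names no tool for the test. Of 16753 genes tested by edgeR, 0 or 0% were called in either direction, with 2283 higher and 1431 lower at an unadjusted p under 0.05. These unadjusted calls were 61.5% higher, and 49.8% higher under upper-quartile scaling. DESeq2 called 560 genes higher and 136 lower, the latter 1.02% of the 13298 genes it gave an adjusted p, with 0 members among them. Adjusted p-values by DESeq2 were 0.0840 for IGF2BP3, 0.0765 for CD44 and 0.0975 for ACTB. At an unadjusted p under 0.05 by edgeR, 2 of the 9 tested members were lower, IGF2BP3 and CD44, against 8.54% of all tested genes, and 1 was higher, ACTB, against 13.6%. The same 3 genes were those whose groups did not overlap, with a background of 11% of tested genes lower and 13.2% higher. The median log2 fold change of the 9 tested members was 0.21 and that of all tested genes −0.01, with 5 members above and 4 below 0. The members' median is the value of IGF2BP1 itself, which rests on 159 counts and ran from −0.49 to 0.71 with 1 library left out. The median and the split of signs therefore depend on a gene that was too shallow for a difference to be seen.

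IGF2BP2, the family member that remains on in adult tissues, was at 230.1, 218.8 and 205.5 CPM in sh-NC and 206.6, 178.7 and 195.4 CPM in sh-IGF2BP3. The groups overlapped by a single pair of libraries. The log2 fold change was −0.17 (SE 0.177, interval −0.55 to 0.20), which edgeR did not call (adjusted p = 0.585). IGF2BP1, with only 159 counts in all 6 libraries, had 8, 48 and 27 counts in sh-NC and 46, 15 and 15 in sh-IGF2BP3. The lowest and the highest library were sh-NC 1 and sh-IGF2BP3 1 by CPM, and the groups overlapped widely. Its log2 fold change of 0.21 had an interval of −0.94 to 1.35, so a difference of either sign within that interval was not detectable at this depth. The near-match of the shRNA to IGF2BP1 could therefore not be followed in its counts.

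Before any correction for GC content, IGF2BP3 was also lower relative to its paralogue. Counts of IGF2BP3 per count of IGF2BP2 were 0.392, 0.384 and 0.342 in sh-NC and 0.291, 0.292 and 0.285 in sh-IGF2BP3. The knockdown ratios lay within a narrow band below every control ratio. The log2 ratio differed by −0.36, or 0.778 fold, with an exact two-sided permutation p of 0.1, the smallest that 3 libraries against 3 allow. IGF2BP3 and IGF2BP2 differ in GC content, 40.5% against 48.7%. With each library's trends with GC content and length removed, an alternative chosen after the data were seen, the ratios were 0.383, 0.342 and 0.311 in sh-NC and 0.355, 0.303 and 0.288 in sh-IGF2BP3, so the groups overlapped and the difference was −0.13 (exact permutation p = 0.4). As a share, without that correction, of the summed FPKM of the 3 genes, IGF2BP3 made up 18.8% ± 1.13 in sh-NC and 15.3% ± 0.158 in sh-IGF2BP3 (SD, n = 3), IGF2BP2 80.9% ± 1.08 and 84.4% ± 0.302, and IGF2BP1 0.265% ± 0.162 and 0.351% ± 0.211. These shares depend on the gene lengths behind FPKM, 8535 bases for IGF2BP3 and 5330 for IGF2BP2. Their longest transcripts were 4250 and 3688 bases, so the shares hold for FPKM only. The summed level of the family was 51.6, 52.5 and 51.3 FPKM in sh-NC and 46.2, 37.6 and 41.9 FPKM in sh-IGF2BP3. All 3 knockdown sums were below all 3 control sums, and their spread was wider. The larger part of this difference was in IGF2BP2, with means of 41.9 FPKM in sh-NC and 35.3 in sh-IGF2BP3. IGF2BP2 was not called, and its groups overlapped in CPM. For IGF2BP3 the means were 9.75 and 6.39 FPKM. The sums carry neither the trimmed-mean scaling used for CPM nor the correction for GC content.

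**Figure D3:**
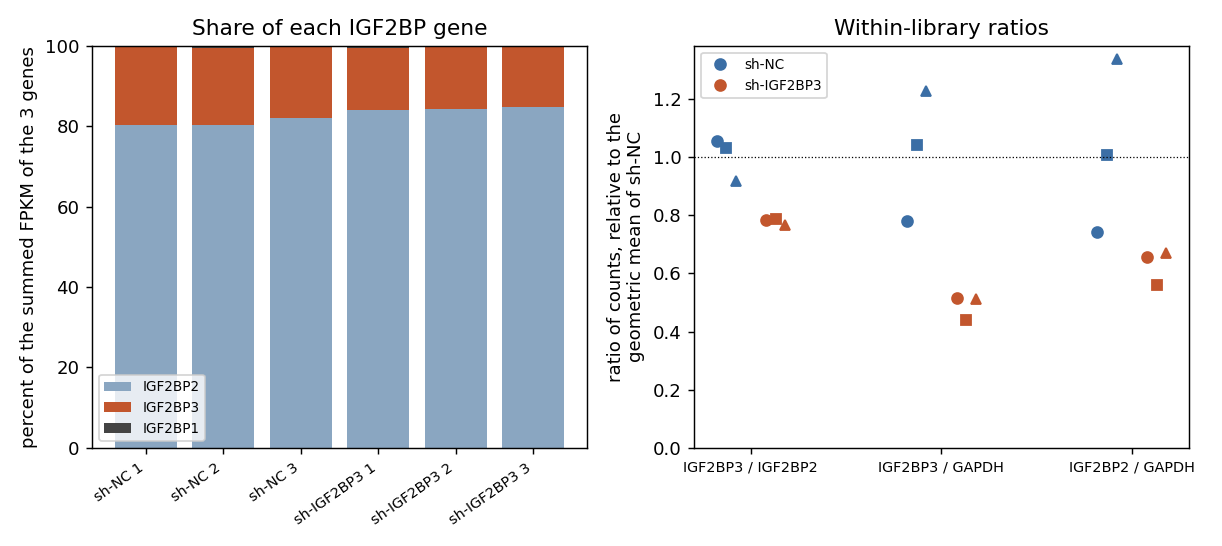
Left, share of the summed FPKM of IGF2BP1, IGF2BP2 and IGF2BP3 taken by each gene in each library, with IGF2BP1 too small to see. Right, ratios of counts within each library, divided by the geometric mean of sh-NC, for 3 sh-NC (blue) and 3 sh-IGF2BP3 (orange) libraries, where all 3 knockdown points lie below all 3 control points for each ratio before any correction for GC content.

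The size of the IGF2BP3 difference depended on the gene it was scaled to. Counts of IGF2BP3 per count of GAPDH, a common reference gene, were 0.0263, 0.0350 and 0.0413 in sh-NC and 0.0173, 0.0148 and 0.0173 in sh-IGF2BP3. On this scale the difference was −1.03 on the log2 scale, or 0.488 fold, and relative to ACTB it was −1.24, or 0.422 fold. GAPDH itself was at 3437, 2401 and 1700 CPM in sh-NC and 3481, 3524 and 3231 CPM in sh-IGF2BP3, with a log2 fold change of 0.44 (edgeR adjusted p = 0.289), and without sh-NC 1 it was 0.74 with an edgeR adjusted p of 0.0317, and without sh-NC 3 it was 0.20 with 0.714. Of the 14 reference genes listed, 12 had a positive log2 fold change and 2 a negative one, with a median of 0.20. Relative to GAPDH, IGF2BP2 differed by −0.67, so the paralogue that the shRNA does not match also came out lower on that scale. With the GC and length trends removed, IGF2BP3 per GAPDH differed by −0.34 and IGF2BP2 per GAPDH by −0.21, and the groups of both overlapped. IGF2BP3 per ACTB then differed by −0.70, or 0.614 fold, and its groups did not overlap.

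Among the client mRNAs, CD44 was in CPM the only one whose knockdown libraries all lay below the controls. Relative to GAPDH, CD44 differed by −1.07 and HMGA2 by −0.71 on the log2 scale, and neither overlapped between groups. With the GC and length trends removed, CD44 per GAPDH differed by −0.43, still without overlap. HMGA2 per GAPDH then differed by 0.11 and its groups overlapped. CD44 was at 1075, 779 and 925 CPM in sh-NC and 581, 558 and 725 CPM in sh-IGF2BP3. The gap between the lowest control and the highest knockdown library was small, from 779 to 725 CPM. The means were 926 ± 148 and 621 ± 90.8 CPM (SD, n = 3), a difference of −32.9%, and the log2 fold change of −0.58 (SE 0.202) was not called (edgeR adjusted p = 0.136), with a 95% interval of −1.004 to −0.15. Without sh-NC 1 it was −0.45 and the adjusted p by edgeR was 0.144. CD44 overlaps the antisense RNA CD44-AS1, which held 246 counts against 87466 for CD44.

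ACTB, the cytoskeletal β-actin and the founding client of the family, had the opposite direction. Its levels were 2302, 1996 and 1121 CPM in sh-NC and 3292, 2779 and 2457 CPM in sh-IGF2BP3. All 3 knockdown libraries were above all 3 controls, and sh-NC 3 was far below the other two controls. The log2 fold change was 0.65 (SE 0.250, interval 0.12 to 1.18; edgeR adjusted p = 0.153). Without the library sh-NC 1, the value was 0.87 and the adjusted p by edgeR was 0.0250, so ACTB then passed both thresholds, while without sh-NC 3 the value was 0.38 and the adjusted p 0.475. Relative to GAPDH, ACTB differed by 0.21 and its groups overlapped. ACTG1, the γ-actin gene, which shares much of its sequence with ACTB, was at 4006, 3730 and 2078 CPM in sh-NC and 6235, 4759 and 4207 CPM in sh-IGF2BP3, the same order of libraries. The 11 ACTB pseudogenes named by symbol held 0.0476% as many counts as ACTB, and the treatment of reads that fit several of these copies is not known.

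MYC was at 644, 344 and 302 CPM in sh-NC and 494, 653 and 540 CPM in sh-IGF2BP3. The groups overlapped through sh-NC 1 alone, which was nearly as high as the highest knockdown library. With all 6 libraries the log2 fold change was 0.39 (SE 0.256, interval −0.16 to 0.93; edgeR adjusted p = 0.381). Without sh-NC 1 it was 0.80 and the adjusted p by edgeR was 0.0160, past both thresholds, and without sh-NC 3 it was 0.16. The same removal of sh-NC 1 took the calls over all genes from 0 to 1739 higher and 985 lower, so the change was not particular to MYC. Relative to GAPDH, MYC differed by −0.04.

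HMGA1 and HMGA2, 2 related chromatin proteins that bend AT-rich DNA, lay on either side of 0. HMGA1 was at 1459, 1227 and 845 CPM in sh-NC and 1750, 1501 and 1419 CPM in sh-IGF2BP3, with a log2 fold change of 0.40 (SE 0.221; edgeR adjusted p = 0.294). HMGA2 was at 260, 237 and 201 CPM in sh-NC and 188, 223 and 192 CPM in sh-IGF2BP3, with a log2 fold change of −0.21 (SE 0.186; edgeR adjusted p = 0.514). In both genes the groups overlapped, by sh-NC 1 in HMGA1 and by sh-NC 3 in HMGA2. Without sh-NC 3 the log2 fold change was 0.19 for HMGA1 and −0.33 for HMGA2, and without sh-NC 1 it was 0.59 and −0.12. The ratio of HMGA2 to HMGA1 within each library was 0.178, 0.193 and 0.238 in sh-NC and 0.107, 0.148 and 0.135 in sh-IGF2BP3. This ratio did not overlap between groups and differed by −0.64 on the log2 scale (exact permutation p = 0.1), but with the GC and length trends removed it overlapped and differed by 0.26. The GC content of their longest transcripts was 61.3% for HMGA1 and 38.8% for HMGA2, the highest and lowest among the tested members. HMGA2 is overlapped on the opposite strand by RPSAP52 and HMGA2-AS1, with 2011 and 1487 counts against 24348 for HMGA2.

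IGF2, the growth factor for which the family is named, was weakly expressed. Its counts were 87, 142 and 161 in sh-NC and 263, 135 and 109 in sh-IGF2BP3, or 4.91, 5.87 and 8.23 CPM and 15.04, 8.83 and 6.19 CPM. The library sh-IGF2BP3 1 stood above the rest, sh-IGF2BP3 2 lay just above the highest control and sh-IGF2BP3 3 lay among the controls. The log2 fold change was 0.66 (SE 0.330, interval −0.04 to 1.36; edgeR adjusted p = 0.252), and without sh-IGF2BP3 1 it was 0.25. The read-through gene INS-IGF2, which shares exons with IGF2, had 0 counts in all 6 libraries. LIN28B, the RNA-binding protein that blocks let-7 maturation, had 4, 18 and 7 counts in sh-NC and 6, 2 and 10 in sh-IGF2BP3, and no fold change is given for it.

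**Figure D4:**
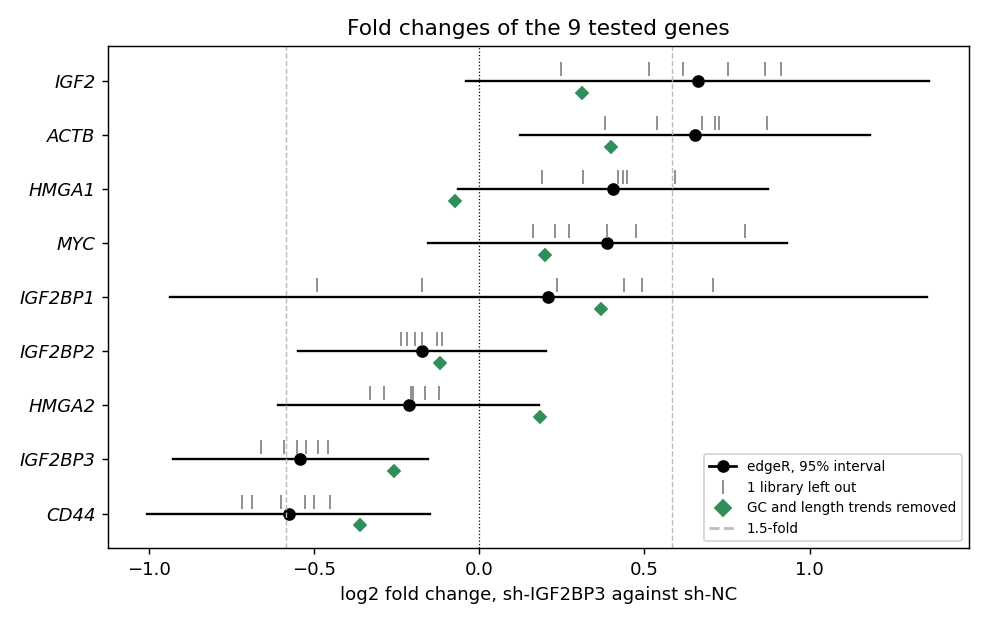
Log2 fold change of the 9 tested genes in sh-IGF2BP3 against sh-NC, with the edgeR 95% interval (black), the 6 values with 1 library left out (grey ticks) and the value after each library's trends with GC content and length were removed (green). Intervals of IGF2BP3, CD44 and ACTB leave out 0 before adjustment over all genes, and the green points for HMGA1 and HMGA2 lie on the other side of 0.

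The position of the members on the trend with GC content went along with their direction. The 5 members with a positive log2 fold change had GC contents of 49.6% (IGF2BP1), 53.9% (MYC), 55.1% (ACTB), 60.5% (IGF2) and 61.3% (HMGA1). The 4 with a negative one had 38.8% (HMGA2), 40.5% (IGF2BP3), 45.3% (CD44) and 48.7% (IGF2BP2). Every GC content in the former set was above every one in the latter. Across all tested genes, the median log2 fold change was −0.28 in the GC bin centred on 41%, which holds IGF2BP3, and −0.18 in that centred on 45%, which holds CD44. It was 0.21 in the bin centred on 55%, which holds ACTB, and 0.43 in that centred on 61%, which holds HMGA1. IGF2BP3, CD44, ACTB, MYC, IGF2 and IGF2BP2 lay farther from 0 than the median of their bins, and HMGA1 and HMGA2 did not. The median was 0.09 in the bin that holds MYC and 0.43 in that of IGF2. It was −0.05 in the bin centred on 49%, which holds both IGF2BP2 and IGF2BP1. IGF2BP1, at 0.21, lay on the other side of 0 from that median.

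When each library's trends with GC content and length were removed, the log2 fold change of IGF2BP3 was −0.26 (edgeR adjusted p = 0.624), that of CD44 −0.36 (0.556) and that of ACTB 0.40 (0.596). HMGA1 then had −0.07 and HMGA2 0.18, both on the other side of 0 from their uncorrected values. After this removal, 0 of the 9 tested members had an unadjusted p under 0.05. IGF2BP3 was then at 90.5, 72.6 and 60.5 CPM in sh-NC and 73.5, 57.0 and 56.8 CPM in sh-IGF2BP3, so its groups overlapped. CD44 overlapped as well, and ACTB alone did not. Whether the trend comes from library preparation or from the knockdown cannot be told apart, because the GC slopes differ between the groups.

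**Figure D5:**
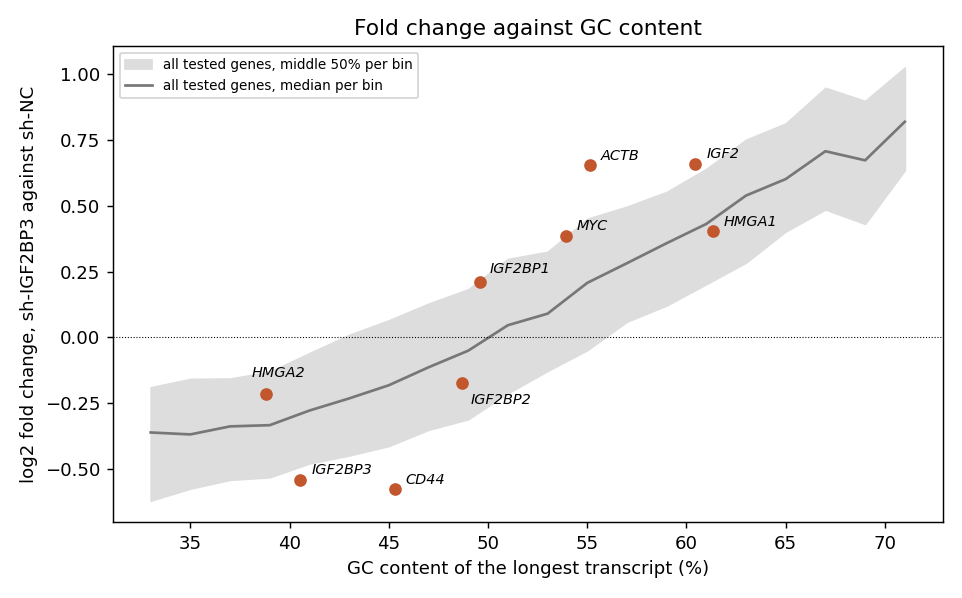
Log2 fold change in sh-IGF2BP3 against sh-NC (y axis) against the GC content of each gene's longest transcript in percent (x axis), with the median and middle 50% of all tested genes per bin in grey and the 9 tested members as orange points. Members with lower GC content lie below 0 and those with higher GC content above it. The medians of all genes also rise with GC content, but IGF2BP1 lies above 0 where the median of its bin is −0.05.

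Across the 6 libraries, the genes whose log2 CPM was most like that of IGF2BP3, among 9796 genes with a mean of at least 10 CPM, were PPARG, CD55, ARL6IP6, ULBP3 and TMEM268, with Pearson correlations of 0.960, 0.959, 0.945, 0.944 and 0.939. Among the members, the correlation with IGF2BP3 was 0.929 for IGF2BP2, 0.812 for CD44 and 0.711 for HMGA2. It was −0.300 for HMGA1, −0.308 for MYC, −0.390 for ACTB and −0.581 for IGF2. The 6 points share their library scaling, their GC slopes and the split into 2 groups, so these values describe the libraries only. PPARG, a nuclear receptor of colon epithelium, was at 47.0, 39.1 and 32.3 CPM in sh-NC and 29.8, 24.0 and 29.7 CPM in sh-IGF2BP3.

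Further mRNAs reported to be bound by IGF2BP proteins did not share a direction. Of 26 listed, 23 were tested, 0 were called, and 10 had a positive and 13 a negative log2 fold change, with a median of −0.05 against −0.01 for all genes. At an unadjusted p under 0.05, 5 of the 23 were higher and 3 lower, against 13.6% and 8.54% of all tested genes. The groups did not overlap for 6 higher and 2 lower, against 13.2% and 11%. FSCN1, which bundles actin filaments, was at 280, 186 and 137 CPM in sh-NC and 479, 400 and 296 CPM in sh-IGF2BP3, a log2 fold change of 0.96 (edgeR adjusted p = 0.103). The nucleotide salvage kinase TK1 had 0.84 and the actin-regulating MARCKSL1 had 0.66, with edgeR adjusted p-values of 0.103 and 0.117. These 3 genes, the ones of smallest p in the list, were among the 6 without overlap. Their GC contents were 65.0%, 62.8% and 59.3%, and the medians of all tested genes in the bins that hold them were 0.60, 0.54 and 0.36.

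The let-7 and miR-98 targets were also split. Of 22 listed, 19 were tested and 0 were called, and the median log2 fold change was −0.04. At an unadjusted p under 0.05 by edgeR, 2 were higher and 3 lower, against 13.6% and 8.54% of all tested genes. The 3 with the smallest p, all lower, were IGF1R, DICER1 and the shRNA's own target IGF2BP3. DICER1, the enzyme that cuts microRNA precursors, was at 151, 120 and 112 CPM in sh-NC and 62.3, 80.0 and 105 CPM in sh-IGF2BP3, a log2 fold change of −0.63 (edgeR adjusted p = 0.130). Sh-IGF2BP3 3 lay just below the lowest control. The GC content of DICER1 was 39.2%, and the median of all tested genes in its bin was −0.33.

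In the IGF pathway, 10 of 13 listed genes were tested, 1 was higher and 1 lower at an unadjusted p under 0.05, near the 13.6% and 8.54% of all tested genes, and 0 were called. IGF1R, the receptor for IGF2, was at 42.9, 53.2 and 65.1 CPM in sh-NC and 45.2, 26.0 and 27.3 CPM in sh-IGF2BP3, a log2 fold change of −0.71 (edgeR adjusted p = 0.126). Its groups overlapped between sh-NC 1 and sh-IGF2BP3 1. The binding protein gene IGFBP2 had 0.51 and the receptor adaptor IRS1 0.52, with edgeR adjusted p-values of 0.170 and 0.239.

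All 8 mRNA-stabilising partners of the family were tested, 1 was higher and 0 lower at an unadjusted p under 0.05, against 13.6% and 8.54% of all tested genes, and 0 were called. The RNA-binding protein YBX1 had a log2 fold change of 0.52, MATR3 −0.48 and the poly(A)-binding PABPC1 −0.32, with edgeR adjusted p-values of 0.197, 0.331 and 0.360. The symbol MATR3 names 2 genes in the table, and the value is that of ENSG00000015479, with 1772 counts in all. The other, ENSG00000280987, had 116 counts and a log2 fold change of 1.62 (edgeR adjusted p = 0.160). How reads were split between these copies is not known, so both values are uncertain. Of 15 oncofetal genes, 8 were tested, 3 were lower and 0 higher at an unadjusted p under 0.05, against 8.54% and 13.6% of all tested genes, and 0 were called. Beside IGF2BP3, the lower ones were PLAG1 and GPC3, at log2 fold changes of −1.23 and −1.08, both weakly expressed with levels of 0.284 to 1.99 and 0.654 to 3.99 CPM. AFP and CEACAM5 had 0 counts in all 6 libraries.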

How the data were processed

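Total RNA of 6 HCT116 samples, 3 sh-NC and 3 sh-IGF2BP3, was sequenced from TruSeq libraries. The authors deposited raw read counts per gene and FPKM values on GRCh38, the latter equal to the count divided by the library total and a gene length common to all libraries. The submitters' processing notes name CASAVA, while the aligner, the counter and the use of strand are not given in the sources used here. Counts were filtered with filterByExpr, normalized by TMM and tested by the edgeR 4.0.16 quasi-likelihood test in R 4.3.3, with Benjamini-Hochberg adjustment over 16753 genes and the study's thresholds (1.5 fold, adjusted p of 0.05). Log2 CPM used a prior count of 2. Ratios of single genes were compared by exact two-sided permutation tests over the 6 libraries. DESeq2 1.42.0, limma 3.58.1 on log2 FPKM with a pseudocount of 1 or 0.1, other scalings and filters, trends with GC content and length (known for 96.9% of tested genes) and each library left out were alternatives. Intervals are 95%, and the scripts were tested on simulated data. The members and lists were chosen with earlier results of these data known. Beside the 10 members and GAPDH, genes named were the 3 of smallest unadjusted p in each list and the 5 most correlated with IGF2BP3, and ACTG1, MALSU1 and other overlapping or related genes were named after their values were seen.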

Additional observations from a re-analysis of the deposited data

How the results depend on the processing

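Of 168 values of single members and of the IGF2BP3 to IGF2BP2 ratio under other settings, 159 kept their sign, and 2 passed the thresholds that the 6 libraries together did not. Over all genes, 0 were called higher and 0 lower, against 560 and 136 by DESeq2, 687 and 150 with no filter on low counts, 1 and 0 with RLE scaling or a minimum of 10 counts per library, and 0 and 1 by limma on log2(FPKM + 1) or log2(FPKM + 0.1). With 1 library left out, 0 to 1739 genes were called higher and 0 to 985 lower. The highest counts came without sh-NC 1, followed by 214 and 14 without sh-IGF2BP3 3. The cause was not tested. IGF2BP3 was −1.03 relative to GAPDH, −0.66 to −0.46 with 1 library left out and below 0 under all alternatives, and its adjusted p ranged from 0.0840 to 0.835. With GC and length trends removed, HMGA1 was −0.074 and HMGA2 0.18, and with the replicate block added −0.055 and 0.21. IGF2BP1 ranged from −0.49 to 0.71 with 1 library left out. The log2 ratio of IGF2BP3 to IGF2BP2 was −0.42 to −0.32 with 1 library left out and −0.13 with the GC and length trends removed, an alternative chosen after the data were seen. MYC and ACTB passed both thresholds only without sh-NC 1. The study describes its samples as 3 pairs of control and knockdown cells, and whether the replicate numbers mark those pairs is not given. Correlations of deviations between libraries of the same number were −0.281, −0.188 and −0.0479, and 0 of 6 libraries correlated best with their own number. With 3 libraries per group, these values cannot show whether the libraries were paired. With the replicate block, 0 genes were called and IGF2BP3 was −0.54. IGF2BP1 and LIN28B, with 159 and 47 counts in all, were too shallow for a difference to be seen.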
